A study of Rattus norvegicus with 18 samples.

Results

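The genes described here carry water and ions across the membranes of brain cells that swell or shrink in edema. They comprise 8 of the 30735 genes in the deposited table, chosen by gene symbol: the water channels Aqp4 and Aqp9, the glial potassium channel Kcnj10, the gap junction gene Gja1, the chloride cotransporters Slc12a2 and Slc12a5, and Trpm4 with Abcc8, the genes of the SUR1-TRPM4 cation channel. Bulk RNA-seq was performed on the cerebral cortex of 18 adult Sprague Dawley rats aged 8 to 10 weeks, with 6 rats in each of 3 groups. The SAH 1d and SAH 7d groups were sampled 1 and 7 days after subarachnoid hemorrhage (SAH), produced by perforating an artery from inside with a filament. The sham group had the same operation without perforation. The tissue is given as the cortex of the operated side in the study's methods and as cortex of both sides in the library descriptions, and no cells were sorted.

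By way of background, Aqp4 forms the main water pore of astrocyte endfeet around vessels, and Kcnj10 (Kir4.1) and Gja1 (connexin 43) let the same cells take up potassium and pass it to their neighbors. Slc12a2 (NKCC1) brings sodium, potassium and chloride into cells together with water, whereas Slc12a5 (KCC2) is the neuronal transporter that moves chloride out and keeps inhibitory GABA responses hyperpolarizing. Trpm4 is a calcium-activated sodium channel that can assemble with SUR1, the sulfonylurea receptor encoded by Abcc8, after injury, and the drug glibenclamide binds SUR1.

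Slc12a5 and Slc12a2 are the 2 members with an adjusted p under 0.05 in the main test, in SAH 1d versus sham and in opposite directions. Their promoters are shown for that reason. The Slc12a2 call is at the edge of the threshold and holds in 9 of 25 alternative fits, that of Slc12a5 in 20 of 25. RefSeq gives promoter windows of 250 bases before to 50 bases after the transcription start for 7 of the 8 members. The 250 bases before the start are printed, 5′ to 3′ on the plus strand of GRCr8, with each GC box (GGGCGG) in capitals. The first lies at chr18:53546083-53546332 and the second at chr3:174115583-174115832.
Slc12a2: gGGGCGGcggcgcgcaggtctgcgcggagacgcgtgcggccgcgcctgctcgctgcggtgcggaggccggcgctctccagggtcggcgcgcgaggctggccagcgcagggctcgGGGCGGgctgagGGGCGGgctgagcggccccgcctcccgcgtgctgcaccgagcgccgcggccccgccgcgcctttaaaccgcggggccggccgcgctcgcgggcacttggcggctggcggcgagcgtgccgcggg
Slc12a5: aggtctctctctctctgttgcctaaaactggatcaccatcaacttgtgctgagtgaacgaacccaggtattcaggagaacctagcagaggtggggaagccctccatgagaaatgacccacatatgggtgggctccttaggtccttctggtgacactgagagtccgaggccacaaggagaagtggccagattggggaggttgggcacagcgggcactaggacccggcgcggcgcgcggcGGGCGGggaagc
The Slc12a2 window is 80.7% GC and holds 52 CpG dinucleotides, more than 99.5% of the 33469 promoters in the table, whose median is 51.7% GC and 7 CpG. The Slc12a5 window is 61.3% GC with 16 CpG. A GC box on either strand occurs 3 times in the Slc12a2 window and once in that of Slc12a5, and 33.1% of all promoters hold one. Neither window holds ACGTG, the core of the hypoxia response element (19.3% of all promoters), TTCNNNGAA, the STAT element (8.87%), or TATAAA, the TATA box (14.2%), on either strand. Among the other members, ACGTG occurs in the windows of Trpm4 and Gja1. Such matches describe letters in these windows only, and no binding was measured.

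Library totals lie between 27270026 and 38271014 counts, and the members are well covered, from 97 counts of Aqp9 in SAH 1d replicate 3 to 36137 counts of Aqp4 in SAH 7d replicate 2. All 8 members passed the filter on low counts that left 18444 genes for testing. The libraries carry cortical markers throughout: none of 8 neuronal and none of 8 astrocyte markers is at 0 in any group. Several libraries stand apart. They include SAH 1d replicate 3, with the highest neutrophil (87.6 CPM) and macrophage (499 CPM) marker sums of its group, and SAH 7d replicate 5, whose macrophage sum is 8204 CPM against a group median of 127 CPM and whose neuronal sum of 2744 CPM is the lowest of all libraries. SAH 1d replicates 6 and 4 have choroid plexus marker sums of 1059 and 731 CPM, against 3.44 to 68.0 CPM in the sham group. In the sham group, replicate 1 has the highest astrocyte, oligodendrocyte, microglial and endothelial sums and the lowest neuronal sum. These libraries are named below where they stand out. For some results, mostly at day 1, the value without them is given as well. In cortex as a whole, fewer cells of a type and less RNA per cell cannot be told apart.

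The members differ widely in abundance. On the FPKM scale, which divides by transcript length, the mean level in the sham group is 120.5 FPKM for Gja1, 119 for Aqp4, 66.1 for Slc12a5, 23.0 for Kcnj10, 20.8 for Slc12a2, 5.06 for Abcc8, 3.87 for Aqp9 and 1.61 for Trpm4. The neighbors Gja1 and Aqp4, Kcnj10 and Slc12a2, Abcc8 and Aqp9, and Aqp9 and Trpm4 overlap in their range over the 6 sham libraries. In the SAH 1d group the order becomes Aqp4 (156 FPKM), Gja1 (118), Slc12a5 (45.0), Slc12a2 (28.9), Kcnj10 (20.01), Abcc8 (4.11), Aqp9 (3.24) and Trpm4 (1.44). Slc12a2 thus stands above Kcnj10 in all 6 SAH 1d libraries, whereas Kcnj10 stands above Slc12a2 in 5 of 6 sham libraries, and the ranges of this pair overlap in both groups. The SAH 7d group has the same order as SAH 1d, from 159 FPKM for Aqp4 to 1.26 FPKM for Trpm4.

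**Figure D1:**
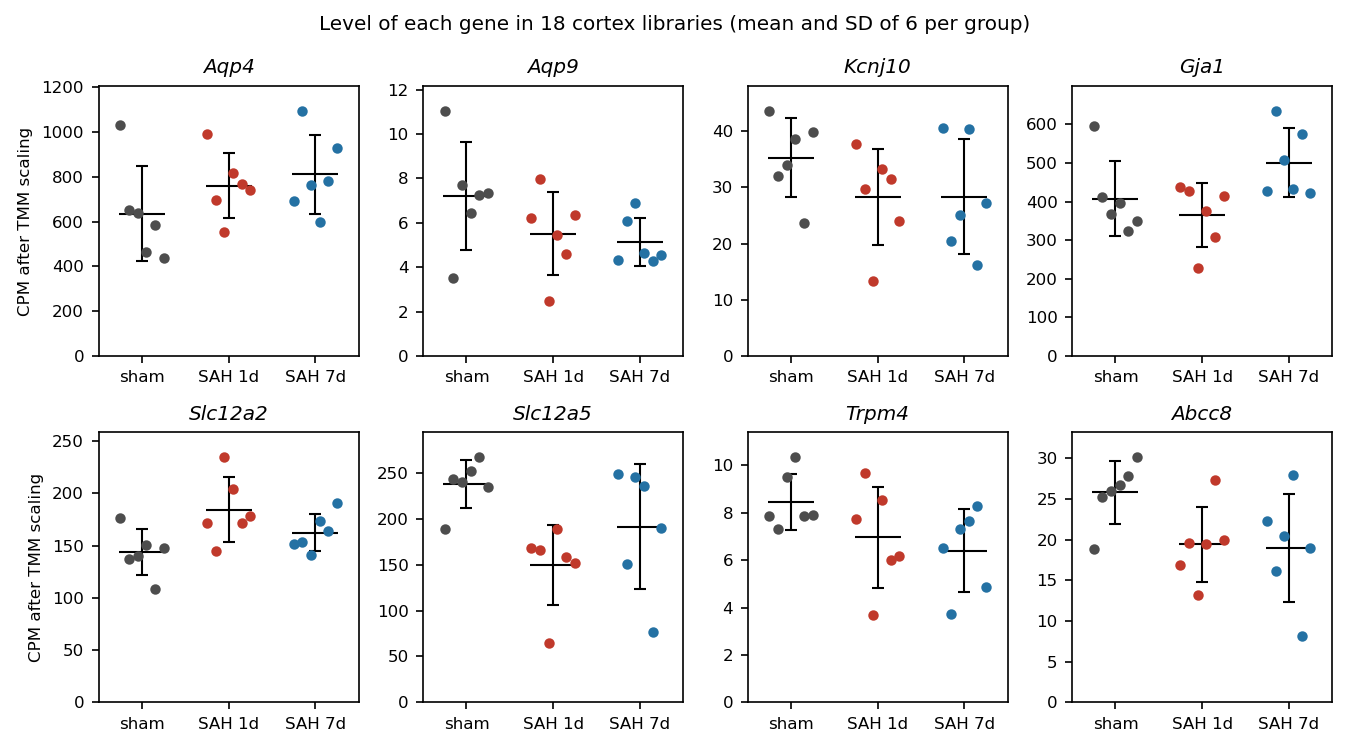
Level of each of the 8 genes in CPM (counts scaled to a common library size) after TMM scaling, with 1 point per library, for 6 sham, 6 SAH 1d and 6 SAH 7d libraries; the bars are the group mean and SD, and each vertical axis starts at 0. Slc12a5 is the member whose SAH 1d libraries (64.4 to 188 CPM) all lie below the sham libraries (189 to 267 CPM).

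At day 1 the chloride exporter fell and the chloride importer rose, the latter at the edge of the threshold. The water channels, Kcnj10, Gja1, Trpm4 and Abcc8 did not pass the test. Here and below, each comparison is fitted with edgeR's quasi-likelihood test across all 18444 genes, p-values are adjusted by the Benjamini-Hochberg method, changed means an adjusted p under 0.05, and a DEG is a changed gene whose log2 fold change is also 1 or larger in size. In SAH 1d versus sham, 2 of 8 members changed, 1 higher and 1 lower, where 25.4% of all genes changed (14.9% higher and 10.5% lower). Of the changed genes 58.7% are higher in this fit, and 79.0 to 82.4% in limma fits of FPKM values. The share of members that changed is therefore near that of all genes. None of the members is a DEG, against 6.64% of all genes, and 3 of 8 have an unadjusted p under 0.05 (7148 of 18444 genes do). The median log2 fold change of the members is -0.30, and that of all genes is 0.01.

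**Figure D2:**
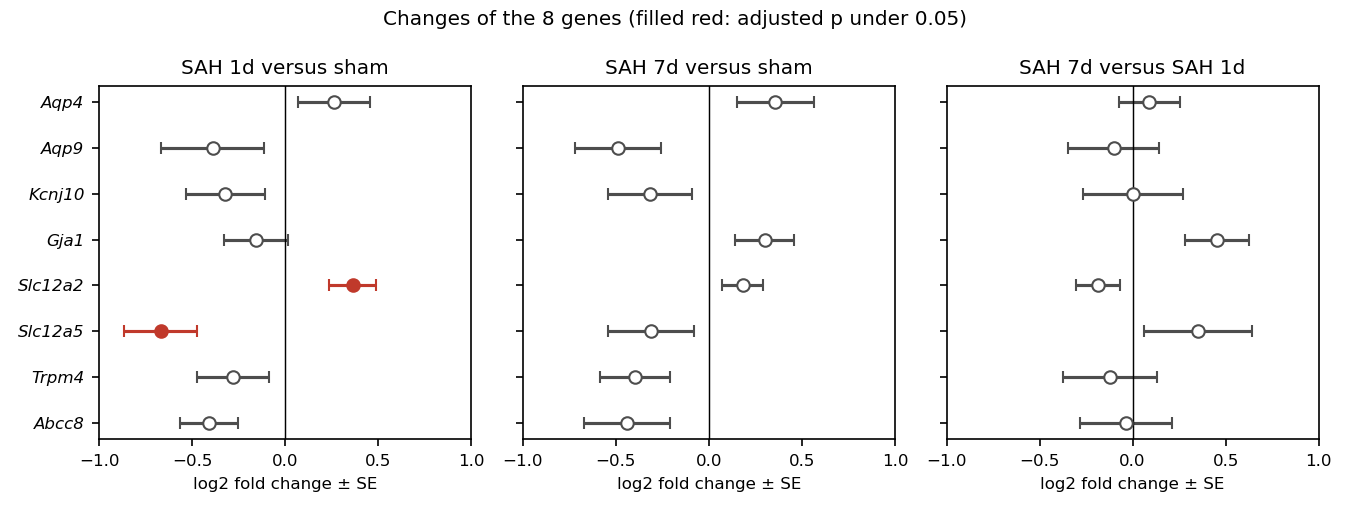
Log2 fold change of each of the 8 genes, with its standard error, in the 3 comparisons; filled red points have an adjusted p under 0.05 in edgeR's quasi-likelihood test. Only Slc12a2 (0.36) and Slc12a5 (-0.67) in SAH 1d versus sham are filled.

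Slc12a5, the neuronal chloride exporter, ranges from 189 to 267 CPM in the sham group with a median of 242 CPM. In the SAH 1d group it lies between 64.4 and 188 CPM with a median of 162 CPM. All 6 SAH 1d libraries lie below all 6 sham libraries, although the highest SAH 1d value (188 CPM) and the lowest sham value (189 CPM, replicate 1) almost meet. Slc12a5 fell by 37.1%, a log2 fold change of -0.67 ± 0.20 (SE; edgeR, adjusted p = 0.0246). It is the only member whose SAH 1d and sham groups do not overlap, as 13.3% of all genes do not. Without SAH 1d replicate 3, the lowest library, the log2 fold change is -0.51 with an adjusted p of 0.000919. The call is lost without sham replicate 5 (adjusted p = 0.0523), in the fit of all 18 libraries (0.0817) and in limma on FPKM values (0.0513 to 0.103), all of which give a lower level in SAH 1d.

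Neuronal markers move with Slc12a5. Of 8 neuronal markers, 7 fell in SAH 1d versus sham, where 10.5% of all genes fell. The median log2 fold change over the list is -0.53. Snap25 (-0.73 ± 0.13), a synaptic vesicle fusion protein, has the smallest adjusted p among them in edgeR, 0.00225. Gad2 (-0.18 ± 0.15, adjusted p = 0.391), a GABA-synthesizing enzyme, is the marker that does not pass. The calls that hold least often are those of Rbfox3 (adjusted p = 0.0498), Slc17a7 and Gad1, in 8, 14 and 17 of 25 alternatives. Without SAH 1d replicate 3 all 8 fell, and without both SAH 1d replicates 4 and 6, which leaves 4 SAH 1d libraries, 3 of 8 did. Their summed level is 7613 to 10727 CPM in the sham group, 5496 to 7081 CPM in the SAH 1d group and 2744 to 9882 CPM in the SAH 7d group. Set against that sum, Slc12a5 amounts to 2.35 to 2.58% of it for sham, 1.17 to 2.84% for SAH 1d and 1.999 to 2.79% for SAH 7d libraries. On this relative scale the 3 groups overlap, with medians between 2.44 and 2.51%. SAH 1d replicate 3 is the library at 1.17%. The part of the neuronal markers in the change of Slc12a5 was not tested.

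**Figure D3:**
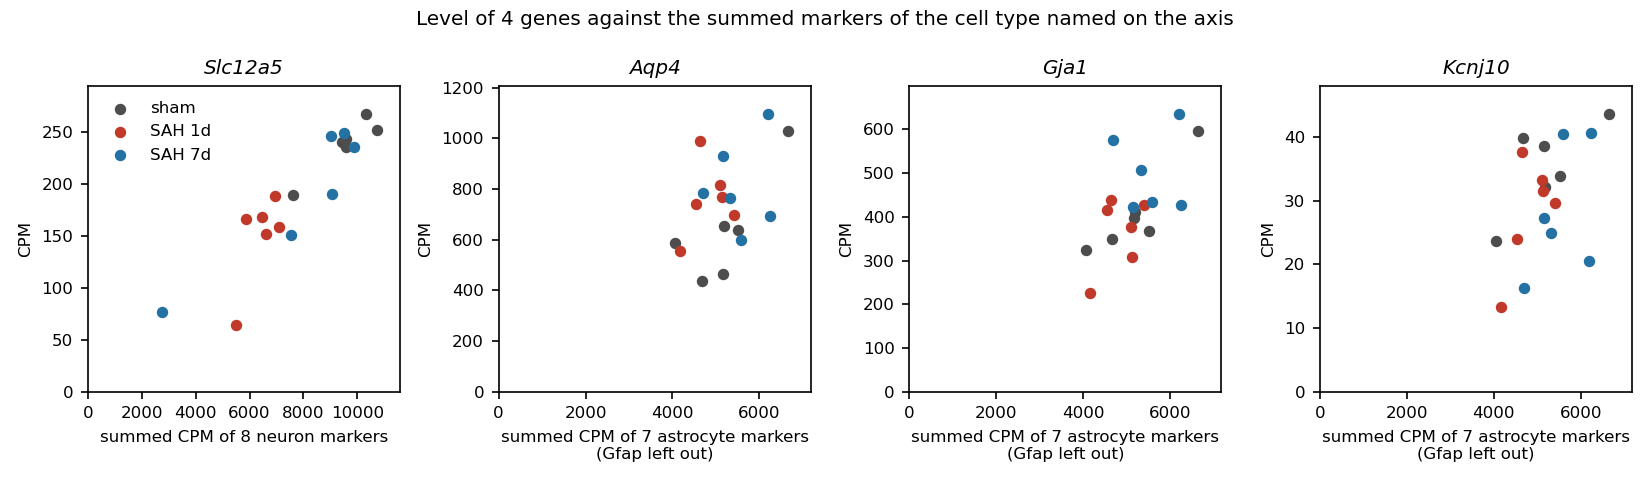
Level of Slc12a5 (CPM) against the summed CPM of 8 neuronal markers, and of Aqp4, Gja1 and Kcnj10 against the summed CPM of 7 astrocyte markers, Gfap left out, with 1 point per library and all axes from 0. The SAH 1d libraries lie at 5496 to 7081 CPM on the neuronal axis, below every sham library, and at 4169 to 5410 CPM on the astrocyte axis, within the sham range of 4054 to 6647 CPM.

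Slc12a2, the sodium, potassium and chloride importer, ranges from 109 to 177 CPM (median 144) in the sham group and from 145 to 235 CPM (median 175) in the SAH 1d group. The groups overlap, with 3 of 6 SAH 1d libraries above all sham libraries and all 6 above the sham mean of 143 CPM. Slc12a2 rose 1.29-fold (log2 fold change 0.36 ± 0.13, edgeR, adjusted p = 0.0495). This call is at the edge of the threshold: of 12 fits that each leave out 1 library, it holds without sham replicate 1 (0.0246) or SAH 1d replicate 2 (0.0280) and not in the other 10, where adjusted p reaches 0.101. The log2 fold change in these 12 fits lies between 0.28 and 0.43. The libraries with the highest Slc12a2 are SAH 1d replicate 3 (235 CPM) and SAH 1d replicate 4 (204 CPM), and without replicate 3 the adjusted p is 0.0747. Replicate 4 is also a library with a high choroid plexus sum, and without replicates 4 and 6 the log2 fold change is 0.34 with an adjusted p of 0.128.

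The ratio of Slc12a2 to Slc12a5 sets the transcript of the importer against that of the neuronal exporter within a library, so it needs no scaling between libraries, and it measures no transport. In FPKM, this ratio is 0.213 to 0.489 in the sham group (median 0.310) and 0.457 to 1.91 in the SAH 1d group (median 0.568). 5 of 6 SAH 1d libraries exceed all sham libraries, and SAH 1d replicate 2 (0.457) lies below sham replicate 1 (0.489). The test used the log2 ratio of CPM. Its mean differs by 1.095 between SAH 1d (SD 0.75, n = 6) and sham (SD 0.38, n = 6), or 2.14-fold (two-sided exact permutation test, p = 0.00433, adjusted p = 0.0260 over 6 tests). With 6 libraries a group, the smallest p this test can give is 0.00216. SAH 1d replicate 3, at 1.91, stands far above the rest of its group, and without it the difference is 0.79 with an exact permutation adjusted p of 0.0390. Without SAH 1d replicates 4 and 6 it is 1.19 with an exact permutation adjusted p of 0.0571, which misses the threshold.

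At day 7 the ratio is 0.300 to 1.12 with a median of 0.455, between those of the other groups. In the log2 ratio of CPM, the SAH 7d group differs from the sham group by 0.60 (exact permutation p = 0.0714, adjusted p = 0.214) and from the SAH 1d group by -0.50 (exact permutation p = 0.290, adjusted p = 0.580). Both missed the threshold. The highest SAH 7d value, 1.12, belongs to replicate 5, the library with the low neuronal sum. The next are replicates 2 (0.536) and 6 (0.524), which also exceed all sham libraries. The neuronal marker sums given above differ between the same groups, and their part in the ratio was not tested.

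**Figure D4:**
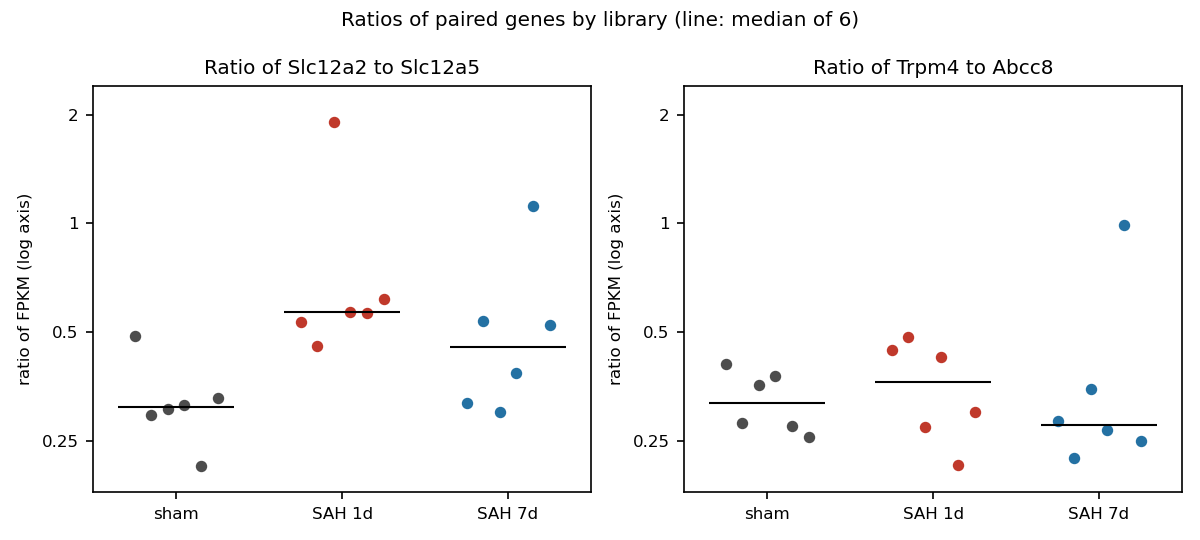
Ratio of Slc12a2 to Slc12a5 and of Trpm4 to Abcc8, in FPKM, with 1 point per library on a log axis and a line at the median of 6. The medians of the first ratio are 0.310 (sham), 0.568 (SAH 1d) and 0.455 (SAH 7d), and those of the second are 0.319, 0.364 and 0.276.

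Aqp4, the astrocyte water channel, is one of the most abundant members and its groups overlap in all 3 comparisons. It ranges from 437 to 1030 CPM (median 613) in the sham group, from 555 to 991 CPM (median 756) in the SAH 1d group and from 601 to 1097 CPM (median 774) in the SAH 7d group. The log2 fold change is 0.26 ± 0.19 (adjusted p = 0.334) in SAH 1d versus sham and 0.36 ± 0.21 (adjusted p = 0.402) in SAH 7d versus sham. In each SAH group, 5 of 6 libraries lie above the sham mean of 635 CPM. Sham replicate 1, at 1030 CPM, bears on the day 1 result: the next sham library is at 654 CPM, and without replicate 1 the log2 fold change at day 1 is 0.45 with an adjusted p of 0.0398. The day 1 log2 fold change is 0.49 with an adjusted p of 0.0241 in limma voom, which gives libraries that stand apart less weight. These are the only 2 of 25 alternatives that pass at day 1, and adjusted p reaches 0.551 among the 25. In SAH 7d versus sham 0 of 24 alternatives pass, the fit without sham replicate 1 among them. Sham replicate 1 also carries the highest astrocyte marker sum of its group (7187 CPM, against 4356 to 5876 CPM in the other sham libraries).

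Gja1, the gap junction protein of astrocytes, ranges from 324 to 596 CPM (median 382) in the sham group, from 227 to 438 CPM (median 396) in the SAH 1d group and from 422 to 636 CPM (median 471) in the SAH 7d group. Its lowest libraries are SAH 1d replicates 3 (227 CPM) and 5 (307 CPM), below all sham libraries, and its highest is SAH 7d replicate 2. No comparison passes the test: the log2 fold change is -0.16 ± 0.17 (adjusted p = 0.535) in SAH 1d versus sham and 0.30 ± 0.16 (adjusted p = 0.366) in SAH 7d versus sham. The largest difference between groups is that of SAH 7d versus SAH 1d, 0.45 ± 0.17 (unadjusted p = 0.0202, adjusted p = 0.227), with all 6 SAH 7d libraries above the SAH 1d mean of 365 CPM.

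Kcnj10, the inward rectifier that buffers potassium, ranges from 23.7 to 43.7 CPM (median 36.2) in the sham group, from 13.4 to 37.7 CPM (median 30.6) in the SAH 1d group and from 16.2 to 40.6 CPM (median 26.1) in the SAH 7d group. The groups overlap, and the lowest values are again SAH 1d replicate 3 (13.4 CPM) and SAH 7d replicate 5 (16.2 CPM). The log2 fold change is -0.32 ± 0.21 (adjusted p = 0.282) at day 1 and -0.31 ± 0.23 (adjusted p = 0.472) at day 7 against sham. Aqp9, the channel for water and glycerol, is low, at 3.49 to 11.1 CPM (median 7.29) in the sham group, 2.46 to 7.99 CPM (median 5.83) in the SAH 1d group and 4.30 to 6.87 CPM (median 4.59) in the SAH 7d group. The SAH 7d range lies inside the sham range. The log2 fold change of Aqp9 is -0.39 ± 0.28 (adjusted p = 0.321) at day 1 and -0.49 ± 0.23 (adjusted p = 0.334) at day 7.

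The astrocyte markers do not move as 1 list. Of 8, Gfap, the intermediate filament of reactive astrocytes (log2 fold change 3.003 ± 0.17), and Sox9, an astrocyte transcription factor (0.80 ± 0.16), rose in SAH 1d versus sham, whereas Aldh1l1, a folate enzyme (-0.85 ± 0.19), and Aldoc, a glycolytic enzyme (-0.62 ± 0.17), fell, and the other 4 did not pass. The summed level of all 8 is 4356 to 7187 CPM in the sham group, 7075 to 8266 CPM in the SAH 1d group and 6058 to 8745 CPM in the SAH 7d group. Without Gfap, a choice made after its rise was seen, the sum is 4054 to 6647, 4169 to 5410 and 4697 to 6240 CPM, so the groups overlap. Relative to that sum of 7, the median of Aqp4 is 12.1% in sham, 15.5% in SAH 1d and 15.5% in SAH 7d, the median of Gja1 is 7.81, 7.64 and 8.87%, and the median of Kcnj10 is 0.638, 0.581 and 0.499%. For all 3 genes the groups overlap on this scale. The part of astrocyte number or state in the levels of these genes was not tested.

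Trpm4, the pore of the SUR1-TRPM4 channel, is the least abundant member. It ranges from 7.29 to 10.3 CPM (median 7.88) in the sham group, from 3.70 to 9.67 CPM (median 6.94) in the SAH 1d group and from 3.73 to 8.29 CPM (median 6.92) in the SAH 7d group. In each SAH group, 3 of 6 libraries lie below all sham libraries, and the rest overlap with them. The log2 fold change is -0.28 ± 0.20 (adjusted p = 0.310) at day 1 and -0.40 ± 0.19 (adjusted p = 0.333) at day 7 against sham. No library of either SAH group exceeds the highest sham library.

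Abcc8, the SUR1 subunit shared with ATP-sensitive potassium channels, ranges from 18.8 to 30.1 CPM (median 26.3) in the sham group, from 13.2 to 27.3 CPM (median 19.5) in the SAH 1d group and from 8.14 to 27.9 CPM (median 19.7) in the SAH 7d group. In SAH 1d versus sham, 5 of 6 libraries lie below the sham mean of 25.8 CPM, with a log2 fold change of -0.41 ± 0.16 (unadjusted p = 0.0200, adjusted p = 0.0680), which misses the threshold. It passes without sham replicate 1 (adjusted p = 0.0294) and without SAH 1d replicate 5 (0.0165), as well as in DESeq2 (0.0390) and limma voom (0.0109). In all, it passes in 5 of 25 alternatives, and in the others adjusted p reaches 0.258. In SAH 7d versus sham the log2 fold change is -0.44 ± 0.23 (adjusted p = 0.363), and the lowest library is SAH 7d replicate 5.

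The ratio of Trpm4 to Abcc8, pore over regulatory subunit, did not pass in any comparison. In FPKM it is 0.256 to 0.407 for sham, 0.215 to 0.483 for SAH 1d and 0.225 to 0.993 for SAH 7d libraries. The difference in mean log2 ratio of CPM is 0.10 in SAH 1d versus sham, 0.08 in SAH 7d versus sham and -0.02 in SAH 7d versus SAH 1d, with an adjusted p of 0.968 in each (exact permutation test over 6 tests). SAH 7d replicate 5 alone reaches 0.993, and the other 5 SAH 7d libraries end at 0.348.

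At day 7 none of the 8 members changed against sham. The background is the same, since 0 of 18444 genes (0.0%) changed and 0 (0.0%) are DEGs in edgeR's quasi-likelihood test, while 2842 genes have an unadjusted p under 0.05, 0 of them members, and DESeq2 calls 459 genes and limma voom 2. No member has non-overlapping groups in SAH 7d versus sham, as 1.23% of all genes do. The members' log2 fold changes range from -0.49 (Aqp9) to 0.36 (Aqp4), with a median of -0.31 against -0.0039 for all genes. Slc12a5 ranges from 76.6 to 249 CPM (median 213) in the SAH 7d group, and its log2 fold change against sham is -0.31 ± 0.23 (adjusted p = 0.485). 3 of its SAH 7d libraries lie at 236 to 249 CPM, within the sham range, replicate 6 (190 CPM) is close to the lowest sham library, and replicates 2 (151 CPM) and 5 (76.6 CPM) lie below all sham libraries. Slc12a2 ranges from 141 to 190 CPM (median 159) at day 7, with a log2 fold change of 0.18 ± 0.11 (adjusted p = 0.414).

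Between the SAH groups, no member passed the test in SAH 7d versus SAH 1d, where 1.37% of all genes changed and 0.694% are DEGs, and 1 member, Gja1, has an unadjusted p under 0.05 (2713 of all genes do). No member has non-overlapping groups, against 3.05% of all genes. Slc12a5 is higher at day 7 than at day 1 by 0.35 ± 0.29 on the log2 scale (adjusted p = 0.616), with 4 of 6 SAH 7d libraries above all SAH 1d libraries, and Slc12a2 has a log2 fold change of -0.19 ± 0.12 (adjusted p = 0.506). The remaining members other than Gja1 differ by -0.12 to 0.09. The comparisons with sham share the sham libraries, so their values for the members are not independent: Slc12a5 is at -0.67 and -0.31, Slc12a2 at 0.36 and 0.18, Abcc8 at -0.41 and -0.44 and Aqp4 at 0.26 and 0.36 at days 1 and 7.

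Over the 18 libraries, the genes whose level follows Slc12a5 most closely, out of 14034 tested genes with a symbol, include Usp22, a ubiquitin protease (Spearman rho 0.97), and Miga1, a mitochondrial fusion factor (0.95). Without SAH 1d replicate 3 and SAH 7d replicate 5 these genes have rho of 0.95 and 0.94. For Slc12a2 the closest are Ubxn2a (0.83), Unc5b, a netrin receptor (0.82), and a gene whose symbol was turned into a calendar date in the deposited file (ENSRNOG00000049507, 0.82). All points share the groups and the cell makeup of the libraries, so these values are a description.

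Genes with related roles were read from 9 lists of 65 genes, of which 55 were tested. In SAH 1d versus sham 7 of the 55 rose and 6 fell, 4 of them DEGs (median log2 fold change -0.02, against 0.01 for all genes). These 13 genes are 23.6% of those tested, near the 25.4% of all genes that changed, and the DEGs are 7.27%, near 6.64%. Without SAH 1d replicate 3 the counts higher and lower are 9 and 10, without sham replicate 1 they are 9 and 5, and without both SAH 1d replicates 4 and 6 they are 8 and 5. In the main fit none passed in SAH 7d versus sham or SAH 7d versus SAH 1d, where 14 and 9 have an unadjusted p under 0.05. Without SAH 1d replicate 3 and SAH 7d replicate 5, 2512 of 18444 genes changed in SAH 7d versus SAH 1d. Of the 13 genes, Aqp1 (log2 fold change -1.32, edgeR, adjusted p = 0.00124), Slc12a7 (-0.73, 0.0170), Trpv4 (-1.54, 0.0434) and Dtna (0.32, 0.0246) then passed, and the others did not.

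Of the other aquaporins, 2 of 10 were abundant enough to test. Aqp1, the water channel of choroid plexus and vessels, ranges from 2.61 to 6.70 CPM in the sham group and from 16.2 to 33.6 CPM in the SAH 1d group, with no overlap, and rose 5.41-fold (log2 fold change 2.43 ± 0.29, adjusted p = 0.000134). Choroid plexus markers stand out in SAH 1d replicates 6 (summed 1059 CPM) and 4 (731 CPM), the libraries with the highest Aqp1 of the SAH 1d group. Without both, the log2 fold change of Aqp1 is 2.19 (edgeR, adjusted p = 0.00103). SAH 7d replicate 5 has 24.96 CPM of Aqp1, against 24.76 CPM in SAH 1d replicate 4, with a choroid plexus sum of 10.7 CPM. Aqp11, an intracellular aquaporin, fell (log2 fold change -0.50 ± 0.16, adjusted p = 0.0399), from a mean of 9.32 to 6.60 CPM. Among 9 genes of the dystrophin complex and the matrix that hold Aqp4 at the endfoot, Agrn, the matrix proteoglycan agrin (-0.49 ± 0.13), and Dtna, alpha-dystrobrevin (-0.37 ± 0.10), fell and the other 7 did not pass.

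Of 7 glial potassium channels and pumps, Kcnk2, a mechanosensitive background potassium channel, fell (log2 fold change -0.71 ± 0.10). Kcnj16, the partner subunit of Kcnj10, is at -0.27 ± 0.25 (adjusted p = 0.442). Of 10 other connexins and pannexins, Gjd2, the connexin of electrical synapses between neurons, fell (-0.87 ± 0.22, adjusted p = 0.0137). Gjb6, the second astrocyte connexin, is at -0.78 ± 0.33 (adjusted p = 0.101).

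Among the other cation-chloride cotransporters, 3 of 5 tested rose and none fell, where 14.9% of all genes rose and 10.5% fell. Slc12a7 (KCC4) ranges from 3.83 to 8.06 CPM in the sham group and from 10.95 to 18.3 CPM in the SAH 1d group and rose 2.27-fold (log2 fold change 1.19 ± 0.18, adjusted p = 0.000814). Slc12a4 (KCC1), the widely expressed potassium and chloride exporter, ranges from 14.0 to 22.5 CPM in the sham group and from 24.5 to 31.6 CPM in the SAH 1d group (0.65 ± 0.11). Neither range overlaps. Slc12a9, an orphan of the family, is at 0.39 ± 0.11 (adjusted p = 0.0235). The highest Slc12a7 and Slc12a4 values of the SAH 7d group are in replicate 5, at 55.6 and 38.1 CPM. This is the library with the high macrophage sum, whose part in these values was not tested. In SAH 7d versus sham the log2 fold changes of Slc12a7 and Slc12a4 are 1.41 and 0.49. Without SAH 7d replicate 5 they are 0.36 and 0.32, and none of these values passed the test. None of the 7 kinases and scaffold genes that regulate these transporters, the WNK kinases among them, passed the test, with a median log2 fold change of -0.08.

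Of the 5 subunits of the volume-regulated anion channel, Lrrc8e (log2 fold change 1.84 ± 0.35, adjusted p = 0.00297) and Lrrc8c (0.31 ± 0.09, adjusted p = 0.0221) rose, while the obligate subunit Lrrc8a is at 0.42 ± 0.17 (adjusted p = 0.0905). Lrrc8e is low, at 0.07 to 0.17 CPM in the sham group and 0.25 to 0.61 CPM in the SAH 1d group. The partners of SUR channels did not pass: Kcnj8, the vascular KATP pore, is at 0.46 ± 0.16 (adjusted p = 0.0544), Abcc9 (SUR2) at 0.34 ± 0.15 (0.120) and Kcnj11, the pore that pairs with SUR1, at -0.02 ± 0.16 (0.927), and Trpm5 was too low to test. Of 7 other routes of sodium and calcium entry, Trpv4, a channel that opens on cell swelling, rose (2.77 ± 0.53, adjusted p = 0.00293) with sham libraries at 0.17 to 0.90 CPM and SAH 1d libraries at 0.72 to 4.996 CPM, and Asic1, an acid-sensing sodium channel of neurons, fell (-0.53 ± 0.16, adjusted p = 0.0274). SAH 1d replicates 4 and 6, with the choroid plexus markers, are among the 3 libraries with the highest Trpv4; without both, its log2 fold change is 2.37 (adjusted p = 0.0157). In fits that leave out 1 library, the calls are lost for Slc12a9 without sham replicate 4 or 6 (adjusted p up to 0.0547) and Asic1 without sham replicate 5 or 6 (up to 0.0620), and that of Aqp11 holds in 4 of 12 (up to 0.0847). Without both SAH 1d replicates 4 and 6, the adjusted p is 0.0682 for Dtna, 0.0526 for Agrn and 0.0714 for Aqp11. In the fit of 18 libraries, the calls of Slc12a9 (adjusted p = 0.179), Slc12a7 (0.0995), Lrrc8e (0.0756), Gjd2 (0.0631), Dtna (0.107), Aqp11 (0.117) and Asic1 (0.0791) are lost. Those of Dtna, Aqp11 and Asic1 are also lost in limma on FPKM values, filtered or not, where adjusted p reaches 0.112, 0.146 and 0.130, and those of Agrn (0.0819) and Gjd2 (0.0528) without the filter. Of the 13 changed genes, Aqp1, Kcnk2, Slc12a4 and Trpv4 passed in every alternative that tested them.

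**Figure D5:**
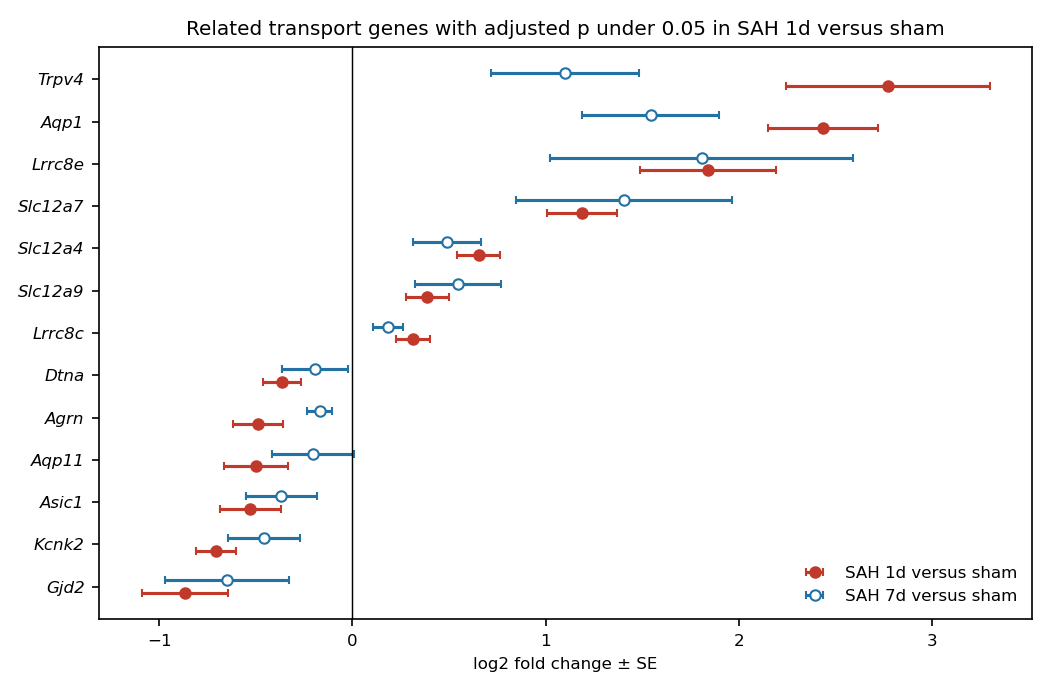
Log2 fold change with standard error of the 13 related genes that have an adjusted p under 0.05 in SAH 1d versus sham (filled), with their values in SAH 7d versus sham (open), none of which passed the test. The day 1 values run from -0.87 (Gjd2) to 2.77 (Trpv4).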

How the data were processed

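RNA-seq of total RNA from rat cerebral cortex was available for 18 libraries, 6 in the sham group and in each SAH group (1d and 7d). According to the study's methods, reads with adapters or of low quality were removed and the rest aligned to the rat genome Rnor_6.0, whereas the submitters' processing notes list fastp, HISAT2 and DESeq2 1.16.1 beside the mouse build mm9; the deposited gene IDs are rat Ensembl IDs. The library kit does not keep strand, and the counting program is not given in the sources used here. The authors deposited raw counts per gene and library, without pooling, and FPKM values that the authors scaled to transcript length and mapped reads.

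The members and gene lists were chosen with earlier results of these data known. Counts were filtered with filterByExpr on 18 libraries, scaled by TMM and tested with edgeR 4.0.16 (quasi-likelihood F test, R 4.3.3) on the 12 libraries of each comparison, with Benjamini-Hochberg adjustment over 18444 genes. The SE of a log2 fold change is its size divided by the square root of F. CPM is given after TMM scaling, and FPKM is used to compare genes. The ratios are shown in FPKM and were tested as differences of log2 CPM with a prior count of 2. A two-sided exact permutation test went through the 924 ways to divide 12 libraries into groups of 6. Alternatives used DESeq2 1.42.0 and limma 3.58.1, on voom weights or on log2(FPKM + 1). The count fit was tested on simulated data with changes larger than those of the members. That test does not cover changes of the members' size. All 8 members are named, with, for each pathway list, up to 4 changed genes with the largest log2 fold change at day 1, and the 3 genes most like each changed member; other list genes named with values were chosen after these were seen. A few genes that this rule or these lists would include are not reported here and are left out of the list counts. The groups compared share replicate numbers, but 1 of 18 pairs of same-numbered libraries deviates together (correlation over 0.1; range -0.25 to 0.20), so the numbers were not used as pairs. Promoter sequences come from RefSeq (GRCr8), a later build than that of the counts.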

Additional observations from a re-analysis of the deposited data

Results flagged for a closer look

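Dixon's test was applied to 30 groups of 6 libraries, where chance flags about 1 in 20, and 5 values exceeded the 95% critical value. Sham replicate 1 is far above the other sham libraries in Aqp4 (gap over range 0.633) and in Gja1 (0.680). It also has the highest Slc12a2, Kcnj10 and Aqp9 and the lowest Slc12a5 and Abcc8 of the sham group. SAH 1d replicate 3 is far below the rest of its group in Slc12a5 (0.703) and far above it in the ratio of Slc12a2 to Slc12a5 (0.792, on the log2 scale). SAH 7d replicate 5 is far above its group in the ratio of Trpm4 to Abcc8 (0.708, on the log2 scale), where its Abcc8 level of 8.14 CPM is the lowest and its Trpm4 level of 8.29 CPM the highest of the group.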

How the results depend on the processing

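Of 8 members, 2 changed in SAH 1d versus sham; 1 did with DESeq2 size factors, with no filter on low counts, in limma on log2(FPKM + 1) with and without a filter and on log2(FPKM + 0.1), without SAH 1d replicate 3, and without both SAH 1d replicates 4 and 6 (an alternative chosen after seeing the data), 0 in the fit of 18 libraries, 3 in DESeq2 and 4 in limma voom. Leaving out 1 library gave 0 (without sham replicate 5) to 4 (without sham replicate 1). No member changed in the other comparisons under any alternative. Over all genes, the count in SAH 1d versus sham was 4684, and 2462 in the fit of 18 libraries; in SAH 7d versus sham it was 0, but 459 in DESeq2, 9 in the fit of 18 libraries, 2 in limma voom, 1 in limma on log2(FPKM + 1) with no filter and 0 to 3 with 1 library left out. In SAH 7d versus SAH 1d it was 252, but 1012 in DESeq2, 779 in the fit of 18 libraries, 2718 in limma voom, 406, 403 and 474 in limma on FPKM, 102 to 1545 with 1 library left out (the highest without SAH 7d replicate 5), 2512 without SAH 1d replicate 3 and SAH 7d replicate 5 and 70 without SAH 1d replicates 4 and 6, and the share of higher genes, 20.6%, was 8.68 to 9.61% on FPKM, 36.3% in DESeq2, 43.2% in limma voom, 37.99% without SAH 7d replicate 5, 45.0% without SAH 1d replicate 3 and SAH 7d replicate 5, 10.3% with the replicate block and 1.43% without SAH 1d replicates 4 and 6. The median of all genes in SAH 1d versus sham moved from 0.01 to 0.11 on log2(FPKM + 0.1), where Slc12a2 is at 0.47 and Slc12a5 at -0.62. With the replicate number as a block in edgeR, 29 genes changed in SAH 7d versus SAH 1d. In SAH 1d versus sham, Slc12a5 kept its call (adjusted p = 0.0343) and Abcc8 gained one (0.0451). Slc12a2 and the related gene Lrrc8c lost theirs (0.0578 and 0.0528). The ratio of Slc12a2 to Slc12a5 stayed at 1.095, with an adjusted p of 0.188 in an exact sign-flip test of same-numbered libraries. Each SAH 1d library exceeded the sham library of its number in this ratio, which gives the smallest p that this test allows. A single test at that floor cannot pass after adjustment over 6 tests, so the value decides nothing about the ratio. Of 18 libraries, 2 correlate best with their own number. The same ratio was 1.19 (adjusted p = 0.0571, exact permutation) without SAH 1d replicates 4 and 6. Values near 0 changed sign: Gja1 in SAH 1d versus sham was 0.031 in limma voom. In SAH 7d versus SAH 1d, limma voom gave -0.034 for Aqp4, -0.012 for Kcnj10 and 0.069 for Abcc8; Kcnj10 was -0.0040 with at least 10 counts in every library, -0.0025 with the replicate block, -0.066, -0.068 and -0.066 in the limma fits on FPKM and -0.03 without SAH 1d replicate 3 and SAH 7d replicate 5, where Abcc8 was 0.03. With 1 library left out, this comparison ranged from -0.014 to 0.18 for Aqp4, -0.25 to 0.034 for Aqp9, -0.14 to 0.12 for Kcnj10 and -0.18 to 0.12 for Abcc8. The ratio of Trpm4 to Abcc8 ranged from -0.23 (without SAH 7d replicate 5) to 0.19 in SAH 7d versus sham and from -0.33 to 0.10 in SAH 7d versus SAH 1d, where it was -0.39 without SAH 1d replicate 3 and SAH 7d replicate 5 and 0.012 without SAH 1d replicates 4 and 6. The cause of these moves was not tested.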
